A study of Mus musculus with 12 samples.

Results

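The endoplasmic reticulum (ER) stress response genes *Hspa5*, *Hsp90b1*, *Dnajb9*, *Ern1*, *Eif2ak3*, *Atf6*, *Xbp1*, *Atf4*, *Ddit3*, and *Trib3* were followed in RNA sequencing (RNA-seq) data of the mouse adrenal cortex. They were listed by symbol and matched to Ensembl identifiers, which found 10 of 10 among the 49585 genes counted. Each of 12 male C57BL/6J mice gave 1 library, and all mice were 6 weeks old when feeding began and were fed for 20 weeks. The 4 low-fat diet (LFD) mice received 10% of their energy as fat, and the 4 high-fat diet (HFD) mice 60%. The 4 mice named IPE here received the same HFD, to which icosapent ethyl, the ethyl ester of eicosapentaenoic acid, was added for the last 10 weeks. The labels give the genotype *Fads2*-/- for all 12 mice, whereas the methods of the study describe wild-type mice, and *Fads2* was present at 455 to 2200 CPM in them, a count scaled to the size of its library. The mice are named by the numbers in their labels, which are 2, 5, 6, and 7 for LFD and 1 to 4 for HFD and for IPE.

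The ER folds secreted and membrane proteins, and a rise in unfolded protein starts the unfolded protein response. Its sensors are IRE1 (from *Ern1*), PERK (from *Eif2ak3*), and ATF6. IRE1 splices *Xbp1* mRNA, PERK phosphorylates the translation factor eIF2alpha and thereby favors translation of ATF4, and ATF6 is cleaved in the Golgi to release a transcription factor. The factors XBP1, ATF4, and ATF6 raise chaperones, degradation components, amino acid enzymes, and the proapoptotic factor CHOP (from *Ddit3*). Adrenocortical cells are rich in smooth ER, which carries several enzymes of steroid synthesis. Counts per gene hold neither the splicing of *Xbp1* nor the phosphorylation or cleavage of the sensors, so that mRNA levels alone are described.

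Of the promoters of the members, those of the 2 most abundant ones held the ER stress response element (ERSE), which is known from many chaperone genes, and they are shown for that reason. It was searched as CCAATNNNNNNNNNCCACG on both strands in the 250 bases upstream of each RefSeq gene start (GRCm38.p6), where it is present in 37 of 32851 promoters (0.113%). A RefSeq promoter was matched for 9 of the 10 members, all but *Atf6*. In *Hspa5*, 1 ERSE lay at bases -65 to -47 from the start, and it is shown in capitals within a stretch of 30 bases (chr2:34772020-34772049, plus strand). In GENCODE M21, a longer *Hspa5* transcript starts upstream of it. In *Hsp90b1*, there were 2, at bases -212 to -194 and, on the other strand, at -107 to -89, again in capitals (chr10:86705510-86705694, minus strand).
Hspa5: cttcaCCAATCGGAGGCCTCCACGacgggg
Hsp90b1: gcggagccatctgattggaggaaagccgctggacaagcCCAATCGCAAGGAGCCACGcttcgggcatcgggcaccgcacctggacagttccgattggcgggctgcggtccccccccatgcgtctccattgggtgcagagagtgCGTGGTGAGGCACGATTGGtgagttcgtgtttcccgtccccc
None of the other 7 members with a promoter held these letters in this window. The UPR element bound by XBP1 and ATF6 (searched as TGACGTGG, 0.563% of promoters) and a C/EBP-ATF response element bound by ATF4 (TGATGNAA, 3.45% of promoters) were found in none of the 9. A match of letters is a description of the sequence and was not tested for binding.

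No member differed between diets at the threshold used, an adjusted p of 0.05 (edgeR's quasi-likelihood F test, adjusted over all genes tested by the Benjamini-Hochberg method). In HFD versus LFD mice, 0 of 10 members passed, against 1.45% of all 15909 genes tested. At an unadjusted p below 0.05, 1 member passed (*Eif2ak3*), against 24.8% of all genes, and by DESeq2 1 passed (again *Eif2ak3*), against 13.4%. The 2 groups did not overlap for 0 of 10 members, against 13.6% of all genes. In HFD versus LFD mice, 7 of 10 members had a higher fitted level, against 48.2% of all genes. The median log2 fold change of the members was 0.05, beside -0.01 over all genes. All 10 members passed the filter on low counts in each comparison.

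**Figure D1:**
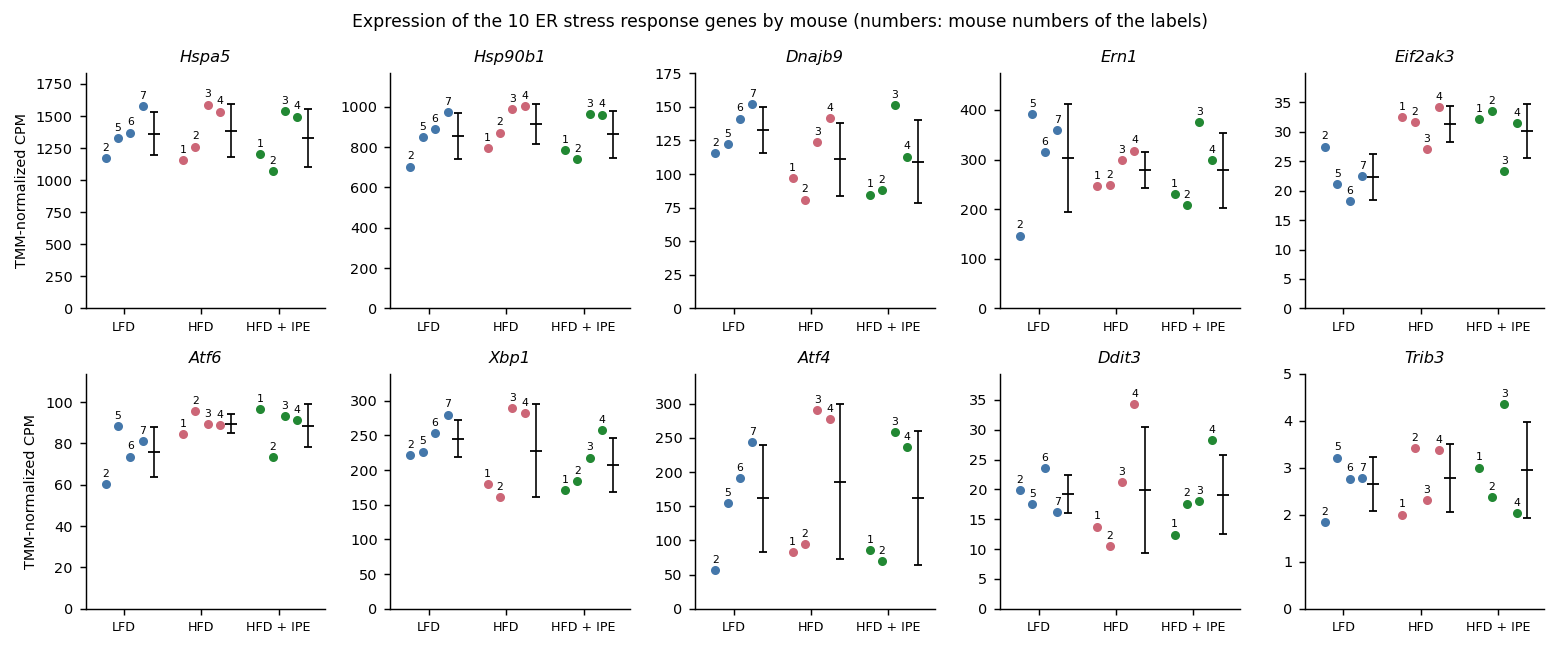
Expression of each of the 10 genes in CPM (vertical axis from 0, scaled by TMM) for each mouse, with its label number, in LFD, HFD, and HFD + IPE mice (horizontal axis). Bars give the group mean and SD (n = 4). The groups overlap in every panel, *Eif2ak3* comes closest to a gap between LFD and HFD mice, and *Atf4* spreads from 57.0 to 290.3 CPM.

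The chaperones were the most abundant members and overlapped between the groups. *Hspa5* encodes BiP, the main Hsp70 chaperone of the ER lumen (chromosome 2, 34771970 to 34777547, plus strand, GRCm38). Its values were 1173, 1327, 1370, and 1577 CPM in LFD mice 2, 5, 6, and 7. They were 1159, 1262, 1590, and 1534 CPM in HFD mice 1 to 4 and 1204, 1068, 1536, and 1496 CPM in IPE mice 1 to 4. Each group thus spanned nearly the whole range, and the means were 1362 ± 166 (LFD), 1386 ± 208 (HFD), and 1326 ± 227 CPM (IPE; SD, n = 4). In HFD versus LFD mice, the fitted log2 fold change was 0.02 (SE 0.14, 95% interval -0.28 to 0.33, adjusted p = 0.936).

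*Hsp90b1* encodes GRP94, the Hsp90 chaperone of the ER (chromosome 10, 86690209 to 86705509, minus strand). LFD mice had 703, 849, 891, and 973 CPM, HFD mice 796, 872, 989, and 1004 CPM, and IPE mice 785, 742, 963, and 961 CPM, in the order of their numbers. HFD mice 3 and 4 were above every LFD mouse, and IPE mice 1 and 2 were below every HFD mouse, whereas all IPE mice lay within the LFD range. The log2 fold change in HFD versus LFD mice was 0.10 (SE 0.12, 95% interval -0.18 to 0.37, adjusted p = 0.665). *Dnajb9* encodes ERdj4, a cochaperone of BiP and a target of XBP1 (chromosome 12, 44205559 to 44210326, minus strand). Its 4 LFD values were 115, 122, 141, and 152 CPM. The HFD values were 97.1, 80.9, 124, and 141 CPM, and the IPE values 84.7, 88.3, 151, and 113 CPM. HFD mice 1 and 2 and IPE mice 1, 2, and 4 were below every LFD mouse, whereas the others lay within the LFD range. *Dnajb9* had a log2 fold change of -0.26 in HFD versus LFD mice (SE 0.17, 95% interval -0.66 to 0.13, adjusted p = 0.375) and -0.28 in IPE versus LFD mice (adjusted p = 0.513).

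Among the sensors, *Eif2ak3* stood nearest to the threshold. It encodes PERK, the ER-bound kinase of eIF2alpha (chromosome 6, 70844515 to 70905245, plus strand). Its values were 27.4, 21.1, 18.2, and 22.4 CPM in LFD mice 2, 5, 6, and 7. In HFD mice, they were 32.5, 31.6, 27.1, and 34.1 CPM. In IPE mice, they were 32.2, 33.5, 23.3, and 31.4 CPM. In HFD and in IPE, 3 of 4 mice were above every LFD mouse, and in both groups mouse 3 was the one within the LFD range. The means were 22.3 ± 3.86 (LFD), 31.3 ± 3.01 (HFD), and 30.1 ± 4.60 CPM (IPE; SD, n = 4). The log2 fold change was 0.48 in HFD versus LFD mice, a 1.40-fold difference (SE 0.14, 95% interval 0.17 to 0.79, adjusted p = 0.0915). DESeq2's Wald test gave 0.49 with an adjusted p of 0.0143, so that the call depended on the tool. In IPE versus LFD mice, the log2 fold change was 0.44 (SE 0.16, 95% interval 0.08 to 0.79, adjusted p = 0.289 by edgeR), and in IPE versus HFD mice it was -0.06 (95% interval -0.35 to 0.24, adjusted p = 0.9997).

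*Atf6*, the sensor that becomes a transcription factor (chromosome 1, 170704674 to 170867771, minus strand), was at 60.2, 88.4, 73.6, and 81.3 CPM in LFD mice. It was at 84.6, 95.5, 89.4, and 88.8 CPM in HFD mice and at 96.4, 73.5, 93.3, and 91.5 CPM in IPE mice. In HFD and in IPE, 3 of 4 mice were above every LFD mouse, and the log2 fold change in HFD versus LFD mice was 0.24 (SE 0.11, 95% interval -0.02 to 0.49, adjusted p = 0.230). *Ern1*, the IRE1 kinase and endonuclease (chromosome 11, 106394650 to 106487852, minus strand), varied most among LFD mice, at 147, 392, 315, and 359 CPM. HFD mice had 246, 249, 300, and 318 CPM, and IPE mice 231, 208, 376, and 299 CPM. LFD mice held both the lowest and the highest value of all 12, and the log2 fold change was -0.12 (SE 0.26, 95% interval -0.71 to 0.46, adjusted p = 0.806).

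Among the transcription factors, *Atf4* had the widest interval of all 10 members. *Atf4* (chromosome 15, 80255184 to 80257541, plus strand), which directs amino acid and stress genes downstream of PERK and the other eIF2alpha kinases, was at 57.0, 155, 191, and 244 CPM in LFD mice 2, 5, 6, and 7. HFD mice 1 to 4 had 82.5, 94.1, 290.3, and 278 CPM. IPE mice 1 to 4 had 85.4, 70.3, 258, and 236 CPM. In both HFD and IPE, mice 1 and 2 were low and mice 3 and 4 high, with no value between. The log2 fold change was 0.21 in HFD versus LFD mice (SE 0.52, 95% interval -0.97 to 1.39, adjusted p = 0.838) and -0.20 in IPE versus HFD mice (95% interval -1.48 to 1.07), so that a 2-fold rise lay within both intervals.

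*Xbp1* (chromosome 11, 5520659 to 5525893, plus strand), whose spliced form encodes the factor for chaperones and secretory genes, was at 221, 227, 254, and 280 CPM in LFD mice. HFD mice had 180, 161, 289, and 282 CPM, and IPE mice 171, 184, 218, and 257 CPM. HFD mice 1 and 2 were below and HFD mice 3 and 4 above the whole LFD range, and the log2 fold change was -0.11 (SE 0.20, 95% interval -0.56 to 0.35, adjusted p = 0.780). *Ddit3*, the gene of the proapoptotic factor CHOP (chromosome 10, 127290774 to 127296288, plus strand), was at 19.8, 17.5, 23.5, and 16.2 CPM in LFD mice. HFD mice ranged more widely, at 13.8, 10.5, 21.3, and 34.3 CPM, and IPE mice had 12.4, 17.6, 18.1, and 28.2 CPM. *Ddit3* had a log2 fold change of 0.04 (SE 0.33, 95% interval -0.71 to 0.79, adjusted p = 0.954).

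*Trib3*, a pseudokinase induced by ATF4 and CHOP (chromosome 2, 152337422 to 152344032, minus strand), was the least abundant member, with 91 to 216 reads per mouse. It was at 1.84 to 3.22 CPM in LFD, 2.0 to 3.42 CPM in HFD, and 2.04 to 4.36 CPM in IPE mice, which overlap throughout. Its log2 fold change in HFD versus LFD mice was 0.06 (SE 0.25, 95% interval -0.50 to 0.63, adjusted p = 0.905). *Hspa5*, *Hsp90b1*, *Ddit3*, and *Trib3* turned to negative values in HFD versus LFD mice when library totals were used without TMM scaling, which also moved the median log2 fold change of all genes to -0.11.

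**Figure D2:**
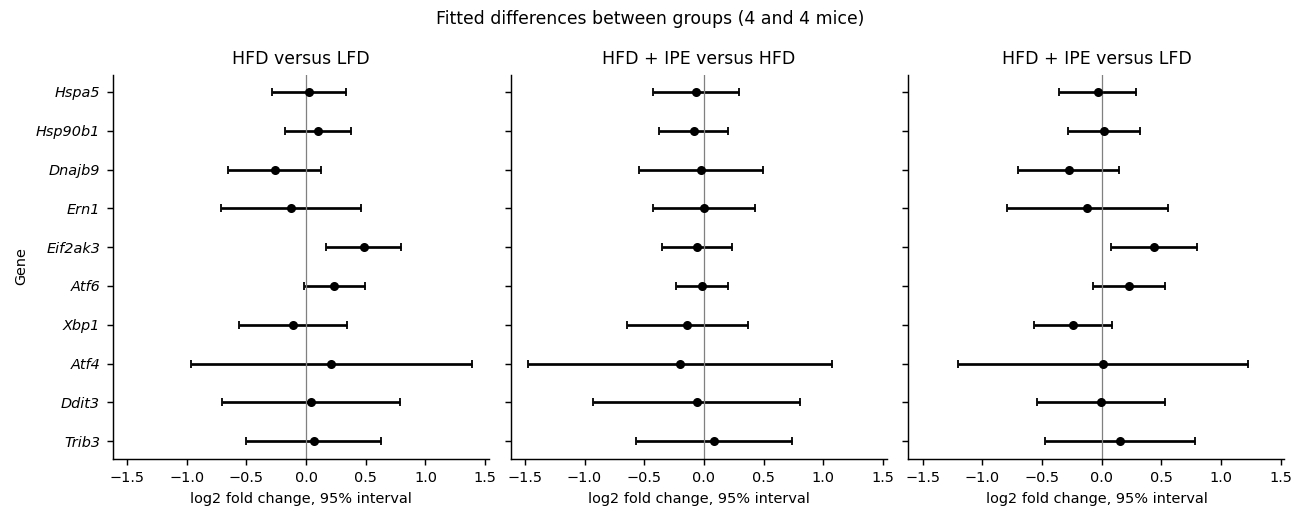
Fitted log2 fold change (horizontal axis) of each gene (vertical axis) with its 95% interval in HFD versus LFD, HFD + IPE versus HFD, and HFD + IPE versus LFD mice, each from 4 and 4 mice. Of the 10 genes, only *Eif2ak3* has an interval that excludes 0, in the first and the last panel, and the interval of *Atf4* is the widest in every panel.

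Icosapent ethyl was given on top of the HFD, and the comparison of IPE with HFD mice asks what it added. For no gene of the genome was the adjusted p below 0.05 (0% called by edgeR), 1.39% of 15913 genes had an unadjusted p below 0.05, 1.09% did not overlap between the groups, and DESeq2 called 0.0377%. For the members, each of these 4 counts was 0. The log2 fold changes of the members ran from -0.20 (*Atf4*) to 0.08 (*Trib3*), 8 of 10 were negative, and the adjusted p was 0.9997 for each. Of all 15913 genes, 7778 had a lower fitted level. The narrowest interval was that of *Atf6* (-0.23 to 0.20), followed by *Hsp90b1* (-0.37 to 0.20), *Eif2ak3* (-0.35 to 0.24), and *Hspa5* (-0.42 to 0.29). Changes of a size within these intervals were not excluded with 4 and 4 mice.

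In IPE versus LFD mice, edgeR called 0% of 15935 genes after adjustment. At an unadjusted p below 0.05, 14% of all genes and 1 member (*Eif2ak3*) passed, 7.73% of all genes and no member did not overlap, and DESeq2 called 3.18% of genes and no member. The log2 fold changes ran from -0.28 (*Dnajb9*) to 0.44 (*Eif2ak3*), with *Atf6* at 0.23 (adjusted p = 0.454) and *Xbp1* at -0.24 (adjusted p = 0.467). This comparison shares its LFD mice with that of HFD versus LFD and its IPE mice with that of IPE versus HFD, so that the values are not independent.

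Per kilobase of exon, which allows levels of different genes to be compared, the members spanned a wide range. *Hspa5* led with 322 (LFD), 328 (HFD), and 314 (IPE) CPM per kb, followed by *Hsp90b1* with 212, 227, and 214. *Atf4* (68.6, 79.0, and 68.9) and *Xbp1* (75.5, 70.2, and 63.8) came next and did not differ beyond their spread in any group, nor did *Dnajb9* (52.1, 43.5, and 42.9) from *Ern1* (37.1, 34.1, and 34.1). *Ddit3* (11.3, 11.7, and 11.1) and *Atf6* (8.22, 9.70, and 9.61) were also within their spread of each other, and *Xbp1* and *Dnajb9* were separated in 1 group. The sensor *Eif2ak3* (3.70, 5.20, and 5.0) and *Trib3* (1.25, 1.31, and 1.39) were lowest. Of the 9 neighboring pairs in this order, 5 were separated by their mean ± SD in every group.

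**Figure D3:**
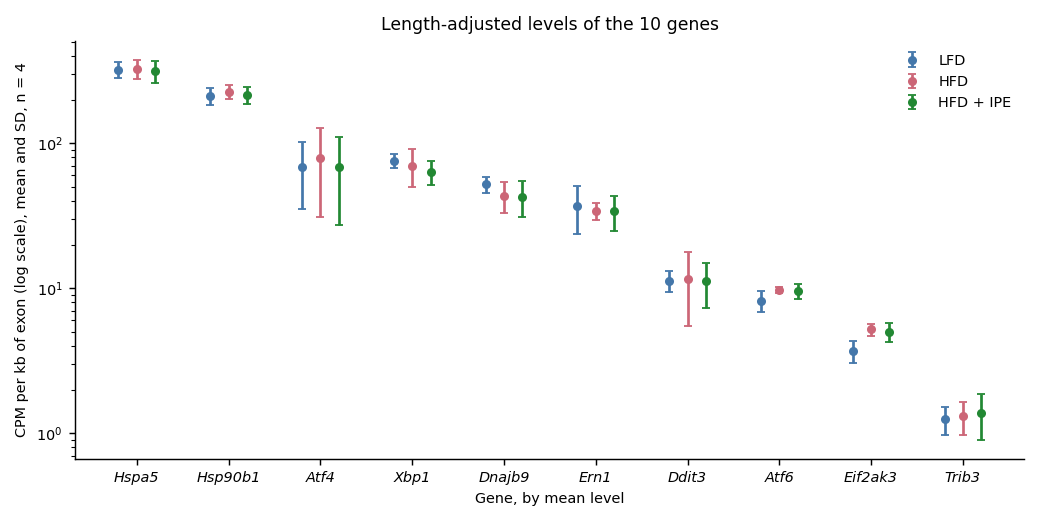
Mean level of each gene in CPM per kb of exon (vertical axis, log scale) in LFD, HFD, and HFD + IPE mice, with bars for the SD (n = 4) and genes in order of their mean. The chaperones *Hspa5* and *Hsp90b1* lie at 212 CPM per kb or more in each group and *Trib3* between 1.25 and 1.39.

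Several of these genes varied widely between mice of the same group. *Atf4* differed 5.09-fold between the lowest and the highest of the 12 mice, and within groups it differed 4.27-fold (LFD), 3.52-fold (HFD), and 3.67-fold (IPE). Its SD within groups was 0.96 on the log2 CPM scale, and 1.23% of the 10898 genes with a mean of at least 5 CPM had an SD as large. The SD was 0.53 for *Ddit3* (9.0% of genes as large), 0.45 for *Ern1* (13.1%), and 0.22 for *Hspa5* (46.2%).

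Most members deviated together. In HFD and in IPE, mice 1 and 2 were both below mice 3 and 4 for 7 of the 10 genes (*Hspa5*, *Hsp90b1*, *Dnajb9*, *Ern1*, *Xbp1*, *Atf4*, and *Ddit3*), an order that 15.2% of 15913 genes showed and 17.8% showed in reverse. The labels give no meaning to these numbers. In LFD, mouse 2 was the lowest for 8 of the 10 genes (all but *Eif2ak3* and *Ddit3*), and mouse 7 the highest for *Hspa5*, *Hsp90b1*, *Dnajb9*, *Xbp1*, and *Atf4*. *Eif2ak3* ran the other way in part, with LFD mouse 2 the highest of its group and HFD mouse 3 and IPE mouse 3 the lowest of theirs.

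**Figure D4:**
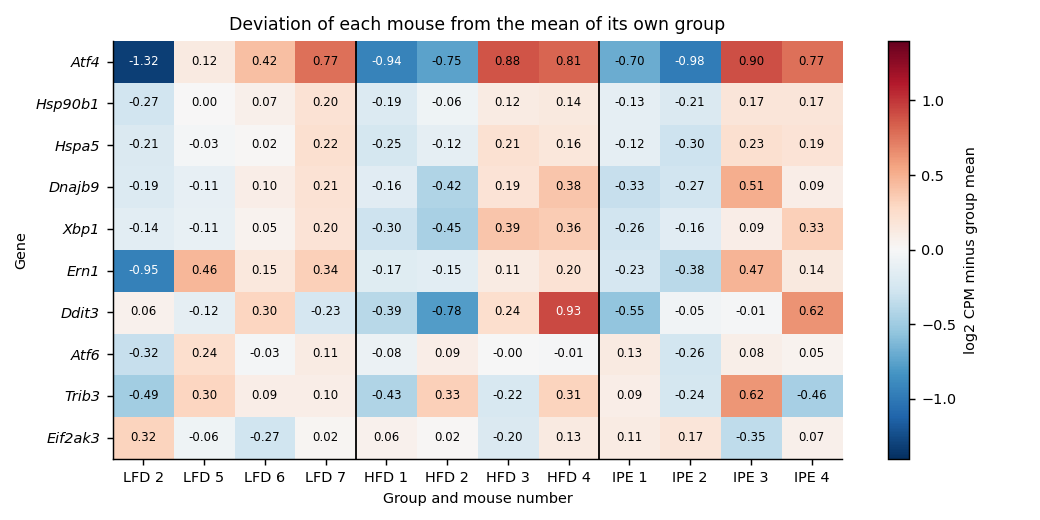
Log2 CPM of each gene (rows) in each mouse (columns) minus the mean of that mouse's own group, with the value printed and colored (red above, blue below the group mean). *Atf4* is below its group mean in LFD mouse 2, HFD mice 1 and 2, and IPE mice 1 and 2, where *Hspa5*, *Hsp90b1*, *Dnajb9*, *Xbp1*, and *Ern1* are below theirs too.

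Taken as deviations of log2 CPM from the own group's mean over the 12 mice, *Atf4* had a Pearson correlation of 0.978 with *Hsp90b1* (Spearman 0.909), 0.963 with *Hspa5* (0.937), 0.866 with *Dnajb9* (0.860), 0.855 with *Xbp1* (0.804), and 0.839 with *Ern1* (0.790). Without the 2 mice farthest from the median of *Atf4*, these were 0.965, 0.968, 0.886, 0.927, and 0.766. With *Eif2ak3*, the correlation of *Atf4* was -0.633, and that of *Ern1* with *Eif2ak3* was -0.717. The correlation of *Atf4* with *Atf6* fell from 0.526 to -0.016 without those 2 mice and thus rested on them. Of the 36 pairs among the 9 members with a mean of at least 5 CPM, 27 had a positive and 9 a negative correlation, 12 reached 0.8, and the median was 0.591.

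These correlations are descriptions, since in HFD and in IPE the values of *Atf4* fell into a low and a high set of mice. They are descriptions also because much of the transcriptome moved with *Atf4*. Of 10897 other genes, 5.70% had a correlation of at least 0.9 with *Atf4* and 4.44% one of at most -0.9, and the first principal component held 52.1% of the variance within groups. Some measures of the whole library moved with *Atf4* as well. The TMM factor was between 0.891 and 0.982 in HFD mice 3 and 4, IPE mice 3 and 4, and LFD mouse 7 and between 0.997 and 1.13 in the other 7 mice. The summed level of the 11 adrenocortical markers was 59831 and 76226 CPM in HFD mice 1 and 2 and 102960 and 103295 CPM in HFD mice 3 and 4. It was 76449 and 61411 CPM in IPE mice 1 and 2, 79216 and 97278 CPM in IPE mice 3 and 4, and ran from 45212 CPM in LFD mouse 2 to 74491 CPM in LFD mouse 7. The 8 immediate-early genes, which rise within minutes of a stimulus, summed to 4846 and 5733 CPM in HFD mice 1 and 2 and to 1352 and 1083 CPM in HFD mice 3 and 4. This order did not hold in the other groups, where the sum was 5188, 2420, 3695, and 1286 CPM in IPE mice 1 to 4 and 638, 2109, 1613, and 2796 CPM in LFD mice 2, 5, 6, and 7. The part of these measures in the pattern was not tested. In bulk tissue, fewer cells of a type and less RNA per cell cannot be told apart.

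The genes most like a member in these deviations were taken as the 5 with the highest Pearson correlation over the 12 mice, among genes with a mean of at least 5 CPM. For *Hspa5*, these were *Mrap* (0.988), *Gpr4* (0.985), *Pmpca* (0.982), *Rab6a* (0.980), and *Pcna* (0.980). *Mrap*, the accessory protein of the corticotropin receptor, is 1 of the 11 adrenocortical markers summed above. Of 10897 other genes, 5.13% had a correlation of at least 0.9 with *Hspa5*, and 0.459% had one with *Ddit3*. For *Atf4*, they were *Isca1* (0.996), *Ell2* (0.996), *Emd* (0.995), *Nolc1* (0.994), and *Impdh2* (0.992). For *Ddit3*, they were *Zfp691* (0.953), *Fkbpl* (0.95), *Zfp160* (0.947), *Pelo* (0.945), and *Snrnp25* (0.943). No member was among the 5 most like any of these 3.

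Beyond the 10 members, 93 genes of the same pathway were taken from 6 lists by role, of which 92 passed the filter on low counts. In edgeR's test of HFD versus LFD mice, 2 of the 92 rose and 2 fell, beside 0.974% of all genes that rose and 0.471% that fell. The median log2 fold change of the 92 was 0.08, and 55 of them had a higher fitted level, beside -0.01 and 48.2% over all genes. The 4 that passed were *Aars* and *Sec24d*, which rose, and *Mthfd2* and *Sdf2l1*, which fell. Their values in IPE versus LFD mice are set against the same LFD mice by which they were chosen and are not a second, independent result. DESeq2 called 9 of the 92, beside 13.4% of all genes, and the groups did not overlap for 16, beside 13.6% of all genes. Each of the 4 calls was lost in 7 of the 8 fits without 1 mouse and remained without HFD mouse 1. Leaving out that mouse raised the number of genes called in the genome from 230 to 918, and leaving out any other mouse lowered it to at most 78.

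*Aars* encodes alanyl-tRNA synthetase, 1 of the aminoacyl-tRNA synthetases that ATF4 induces. It was at 172, 188, 186, and 186 CPM in LFD mice and at 236, 267, 291, and 313 CPM in HFD mice, with a clear gap. In IPE mice, it was at 252, 221, 220, and 275 CPM, above every LFD mouse. The log2 fold change was 0.59 in HFD versus LFD mice (SE 0.10, adjusted p = 0.0390) and 0.41 in IPE versus LFD mice (SE 0.09, adjusted p = 0.187). *Mthfd2*, a mitochondrial enzyme of one-carbon metabolism that ATF4 also induces, moved in the opposite direction. Its values were 34.9, 38.1, 38.7, and 33.8 CPM in LFD and 22.8, 16.2, 24.2, and 23.9 CPM in HFD mice, which did not overlap. In IPE mice, they were 18.2, 25.4, 35.0, and 20.99 CPM, and IPE mouse 3 lay within the LFD range. *Mthfd2* had a log2 fold change of -0.74 in HFD versus LFD mice (SE 0.14, adjusted p = 0.0450) and -0.54 in IPE versus LFD mice (adjusted p = 0.272).

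*Sdf2l1* encodes an ER protein that works with BiP and ERdj cochaperones. It was at 55.1, 45.3, 48.6, and 35.8 CPM in LFD mice and at 30.1, 27.7, 28.4, and 25.0 CPM in HFD mice. IPE mice had 30.7, 32.7, 29.5, and 25.1 CPM, so that every HFD and IPE mouse was below every LFD mouse. *Sdf2l1* had a log2 fold change of -0.74 in HFD versus LFD mice (SE 0.14, adjusted p = 0.0450) and -0.64 in IPE versus LFD mice (adjusted p = 0.184). *Sec24d* encodes a cargo receptor of the COPII coat, which buds vesicles from the ER. It was at 71.7, 68.7, 51.7, and 59.0 CPM in LFD and at 80.4, 123, 129, and 136 CPM in HFD mice, which did not overlap. IPE mice had 123, 69.9, 88.5, and 114 CPM, with IPE mouse 2 within the LFD range. *Sec24d* had a log2 fold change of 0.90 in HFD versus LFD mice (SE 0.18, adjusted p = 0.0489) and 0.66 in IPE versus LFD mice (adjusted p = 0.232).

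Upstream of the RefSeq start of *Sec24d*, the UPR element lay at bases -26 to -19 (chr3:123267459-123267488, plus strand), and it is shown in capitals because the gene is listed as a target of XBP1. The same window of *Sdf2l1* and of *Mthfd2* held no ERSE, no UPR element, and no C/EBP-ATF response element. Of the listed secretory targets of XBP1, only *Sec24d* was looked at. No comparison of motifs between genes that rose and genes that fell was made.
Sec24d: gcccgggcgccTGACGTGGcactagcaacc

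**Figure D5:**
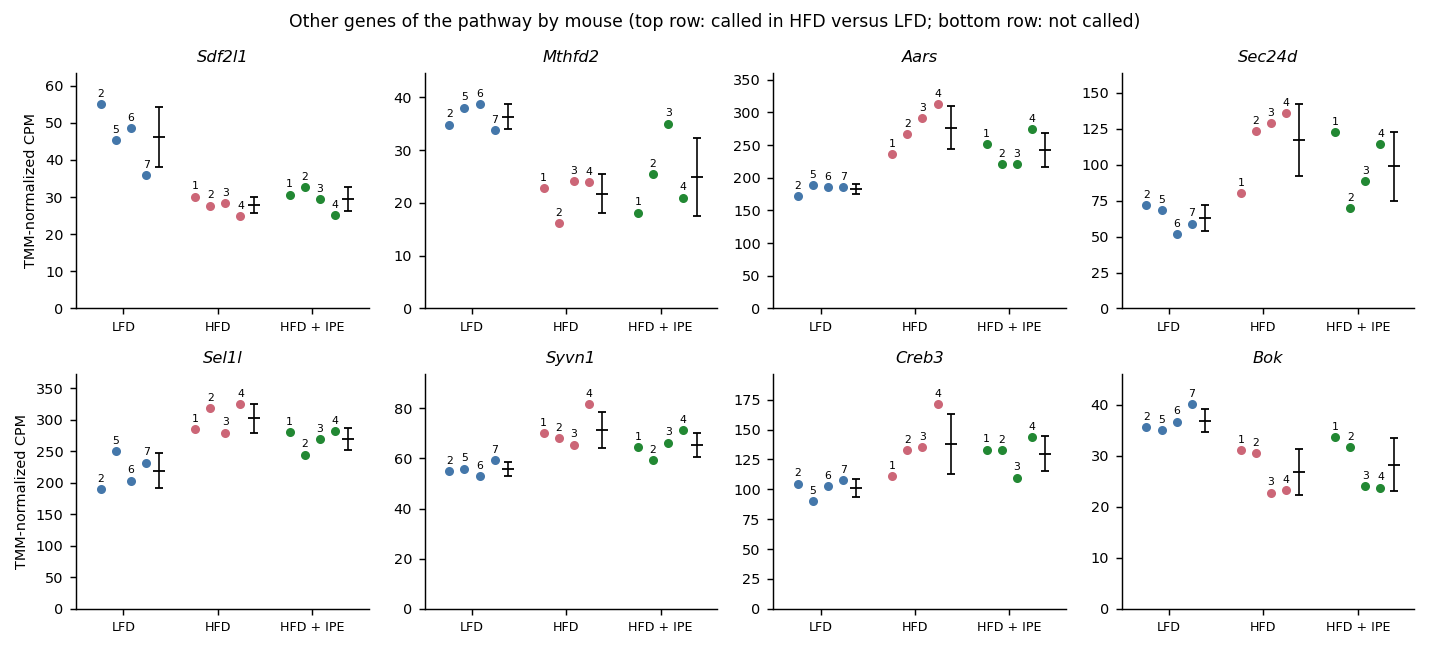
Expression in CPM (vertical axis from 0, TMM-scaled) of 8 other genes of the pathway in each mouse, with its label number, in LFD, HFD, and HFD + IPE mice, and with the mean and SD (n = 4) of each group. The genes were named for their low p in HFD versus LFD mice, so that gaps between these groups follow from the choice. LFD and HFD mice do not overlap in any of the 8 panels, but they do for *Bak1*, named by the same rule and not shown. Of the 92 genes, 16 did not overlap, beside 13.6% of all genes. The 4 genes of the upper row passed the adjusted threshold in HFD versus LFD mice.

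Of 19 further chaperones and foldases, 9 had a higher fitted level in HFD versus LFD mice, the median log2 fold change was -0.06, and 1 gene fell (*Sdf2l1*). Of 24 ATF4 and CHOP targets and genes of eIF2alpha control, 11 were higher, the median was -0.02, and 1 rose (*Aars*) and 1 fell (*Mthfd2*). Of 16 secretory targets of XBP1, 11 were higher, the median was 0.09, and 1 rose (*Sec24d*).

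No gene passed in the other 3 lists, for which the 2 genes with the lowest p are given. Of 15 genes of ER-associated degradation, the route that returns misfolded proteins to the proteasome, 12 were higher in HFD versus LFD mice, and the median log2 fold change was 0.17. *Sel1l* and *Syvn1*, which form the HRD1 ubiquitin ligase complex, had 190 to 251 and 52.8 to 59.5 CPM in LFD mice. In HFD mice, they had 279 to 324 and 65.5 to 81.6 CPM, which did not overlap with LFD. Their log2 fold changes were 0.46 (SE 0.10, adjusted p = 0.0553) and 0.35 (SE 0.08, adjusted p = 0.0650). Among 10 further sensors, proteases, and ER-anchored factors, 7 were higher, with a median of 0.09. Of these, *Creb3* was at 90.2 to 107 CPM in LFD and 111 to 171 CPM in HFD mice (log2 fold change 0.44, adjusted p = 0.0951), and *Creb3l3* at 0.89 to 1.90 and 2.36 to 4.81 CPM (1.11, adjusted p = 0.0874). Of 8 genes of ER stress cell death, 5 were higher, with a median of 0.14. *Bok* was at 35.0 to 40.1 CPM in LFD and 22.8 to 31.1 CPM in HFD mice (log2 fold change -0.46, adjusted p = 0.0816), and *Bak1* at 21.5 to 31.4 and 27.2 to 43.1 CPM (0.43, adjusted p = 0.149).

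With icosapent ethyl, the same 92 genes showed 0 calls against HFD and 0 against LFD mice by edgeR, beside 0% of all genes in both. DESeq2 called 0 and 4, beside 0.0377% and 3.18% of all genes. The 4 were *Aars*, *Sdf2l1*, *Sec24d*, and *Bcl2l11*, the last named after its values were seen. At an unadjusted p below 0.05, 1 and 12 of the 92 passed, beside 1.39% and 14% of all genes. Over all genes in IPE versus HFD mice, 51.1% had a higher fitted level, and the median log2 fold change was 0.004. Of the 92, 28 had a higher fitted level, and the median was -0.06. By list, the higher ones were 2 of 15 genes of ER-associated degradation (median -0.07) and 2 of 16 secretory targets of XBP1 (-0.07). They were also 3 of 10 sensors, proteases, and ER-anchored factors (-0.06) and 8 of 19 chaperones and foldases (-0.06). Of ATF4 and CHOP targets and genes of eIF2alpha control, they were 9 of 24 (-0.06), and of cell death genes 4 of 8 (-0.001). The log2 fold changes of the 4 genes called in HFD versus LFD mice were -0.19 for *Aars* (95% interval -0.46 to 0.07), -0.25 for *Sec24d* (-0.73 to 0.23), 0.19 for *Mthfd2* (-0.31 to 0.70), and 0.09 for *Sdf2l1* (-0.17 to 0.34). Each interval includes 0, and the HFD mice are shared by both comparisons.

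Markers of several cell types of the gland differed in fitted level between HFD and LFD mice, but only macrophage markers passed the adjusted threshold. In HFD mice, 11 of 11 adrenocortical markers had a higher fitted level (median log2 fold change 0.52, 0 called). A lower one was fitted for 12 of 12 chromaffin markers (-1.24, 0 called). The same held for 8 of 9 macrophage markers (-0.63, of which 4 fell at the adjusted threshold). Higher levels were fitted for 5 of 9 adipocyte, 2 of 7 endothelial, 1 of 6 fibroblast and capsule, and 4 of 7 tested plasma and B cell markers. The summed chromaffin markers were at 6477 to 22963 CPM in LFD, 3228 to 10334 CPM in HFD, and 5622 to 11054 CPM in IPE mice, so that RNA of chromaffin cells, the cells of the adrenal medulla, was present in all samples labelled cortex. The summed macrophage markers were at 742 to 1091, 525 to 610, and 573 to 704 CPM. The markers of plasma and B cells, which secrete antibodies through an expanded ER, summed to between 12.1 and 20.7 CPM in the 12 mice. The part of the tissue makeup in the differences of *Aars*, *Sec24d*, *Mthfd2*, and *Sdf2l1* was not tested.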

How the data were processed

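Total RNA from the adrenal cortex of 12 mice was sequenced. The authors trimmed reads with cutadapt, aligned them to GRCm38 with STAR, and counted them on GENCODE M12 genes with HTSeq 0.6.1p1 in reverse-strand mode. They deposited raw read counts per gene and mouse, which summed to 43819152 to 51563705 in HFD, 34785979 to 67295963 in IPE, and 44091587 to 46874227 in LFD mice. The paper calls the libraries paired-end and the reads single. Symbols, coordinates, and exon lengths came from GENCODE M21 (49326 of 49585 genes).

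Groups followed the labels. Pairs of groups were tested in all genes with edgeR 4.0.16 in R 4.3.3 (TMM factors, genes kept by filterByExpr with min.count 10, glmQLFit with robust estimation, glmQLFTest, p-values adjusted by Benjamini-Hochberg to a threshold of 0.05). CPM used TMM factors over 12 mice, and log2 CPM a prior count of 2. Each SE was obtained as the absolute log2 fold change divided by the square root of the F statistic of the test. Intervals use these SEs and moderated degrees of freedom. The fit was also run on simulated counts. These were drawn gene by gene, without the variation that many genes share between these mice, so they cannot vouch for the calls here. The members and lists were chosen with earlier results of these data known. All 10 members are named. Of each list, genes past the threshold are named (at most 6), or else the 2 with the lowest p in HFD versus LFD mice.

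Alternatives were DESeq2 1.42.0, its size factors, library totals, other filters, 1 fit of 12 mice, a threshold of 0.1, and leaving out each mouse. The deviations of same-numbered HFD and IPE mice correlated at 0.391, 0.184, 0.434, and 0.833, so the number was also used as a block. HFD mouse 1 correlated more with IPE mouse 2 (0.735) and HFD mouse 2 with IPE mouse 1 (0.671). Only the number 2 occurs in both LFD and HFD, so no block was possible there. Small genes overlap the spans of *Hsp90b1*, *Eif2ak3*, and *Atf6* on the same strand, and an effect on the counts of these members was not tested. The promoter of 1 further gene is not reported here.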

Additional observations from a re-analysis of the deposited data

Results flagged for a closer look

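In 60 sets of 4 mice (20 genes in 3 groups), 2 had 1 mouse far from the other 3 by Dixon's criterion, which chance alone meets in about 1 of 20 sets. *Mthfd2* was at 16.2 CPM in HFD mouse 2, with a gap to the next mouse of 0.831 of the group's range. *Aars* was at 172 CPM in LFD mouse 2, with a gap of 0.862 of the range, in a group whose other mice lay between 186 and 188 CPM. Both values lay on the side away from the other diet group.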

How the results depend on the processing

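The count of members called was 0 in every comparison and under every alternative, except that in HFD versus LFD mice DESeq2 called 1 and a threshold of 0.1 called 1, in both cases *Eif2ak3*. Of the other pathway genes, 4 were called in HFD versus LFD mice, 9 by DESeq2, 9 at a threshold of 0.1, 2 with library totals in place of TMM, and between 0 and 6 when 1 mouse was left out (fewer mice). The number called over all genes moved as well. It was 230 of 15909 in the main fit, 2049 of 15291 by DESeq2, and 84 of 15909 with library totals. With DESeq2's size factors, it was 179 of 15909, and in 1 fit of 12 mice 556 of 16262. Without 1 mouse, it lay between 0 and 918. The share of all genes at a threshold of 0.1 is not given here. Library totals lost *Sdf2l1* and *Sec24d* (adjusted p = 0.0689 for both), DESeq2's size factors in edgeR lost *Sec24d* (adjusted p = 0.0513, 3 called), and 1 fit of 12 mice lost *Mthfd2* (adjusted p = 0.0559) and gained *Sel1l* and *Syvn1* (5 called). In IPE versus LFD mice, DESeq2 called 4 where edgeR called 0, beside 3.18% and 0% of all genes. The cause of the difference between the tools was not tested. No gene changed sign in a comparison in which it was called. With library totals, they were -0.084 for *Hspa5*, -0.0058 for *Hsp90b1*, -0.097 for *Ddit3*, and -0.036 for *Trib3* in HFD versus LFD mice, 0.047 for *Dnajb9*, 0.0066 for *Eif2ak3*, 0.041 for *Atf6*, and 0.020 for *Ddit3* in IPE versus HFD mice, and -0.029 for *Hsp90b1* and -0.040 for *Atf4* in IPE versus LFD mice. In IPE versus HFD mice, *Ern1* was at -0.0014 by DESeq2, -0.0014 with its size factors, and -0.0022 with no filter. In IPE versus LFD mice, *Ddit3* was at 0.0018 by DESeq2 and 0.0022 with its size factors. With the replicate number as a block, edgeR called 0 members and 0 other pathway genes in IPE versus HFD mice, as without it, and *Ern1* turned to -0.028 and *Ddit3* to 0.015.

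Without 1 mouse at a time, these log2 fold changes took both signs. In HFD versus LFD mice, they ran from -0.094 to 0.48 for *Atf4*, -0.34 to 0.26 for *Ddit3*, -0.35 to 0.020 for *Ern1*, -0.050 to 0.10 for *Hspa5*, -0.075 to 0.19 for *Trib3*, and -0.24 to 0.030 for *Xbp1*. In IPE versus HFD mice, they ran from -0.51 to 0.12 for *Atf4*, -0.052 to 0.062 for *Atf6*, -0.19 to 0.019 for *Bak1*, -0.015 to 0.14 for *Bok*, -0.18 to 0.032 for *Creb3*, -0.29 to 0.062 for *Creb3l3*, -0.32 to 0.32 for *Ddit3*, -0.22 to 0.11 for *Dnajb9*, -0.11 to 0.049 for *Eif2ak3*, -0.18 to 0.12 for *Ern1*, -0.15 to 0.023 for *Hspa5*, -0.016 to 0.32 for *Mthfd2*, -0.17 to 0.23 for *Trib3*, and -0.28 to 0.014 for *Xbp1*. In IPE versus LFD mice, they ran from -0.30 to 0.29 for *Atf4*, -0.26 to 0.16 for *Ddit3*, -0.35 to 0.024 for *Ern1*, -0.067 to 0.10 for *Hsp90b1*, -0.11 to 0.056 for *Hspa5*, and -0.097 to 0.30 for *Trib3*. The fold changes of the other named genes kept their sign. *Trib3* and *Creb3l3* had the fewest reads of the named genes, and the part of depth in the width of the intervals was not tested.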
